A study of Mus musculus with 6 samples.

Results

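Aldehyde dehydrogenases oxidise aldehydes to carboxylic acids with NAD or NADP as the acceptor, and so clear reactive aldehydes that arise from lipid peroxidation, amino acid breakdown and membrane lipids. Some members make signalling molecules, among them retinoic acid from retinaldehyde, which acts on nuclear receptors and is known to shape cartilage development. The genes described here are 10 members of the family, Aldh1a1, Aldh1a2, Aldh1a3, Aldh2, Aldh3a1, Aldh3a2, Aldh3b1, Aldh6a1, Aldh7a1 and Aldh9a1, taken by symbol from the 55377 genes of each count table, and each symbol matched 1 gene. The family was singled out because Aldh3a1 was higher with Irf1 siRNA in these same libraries. The members' differences between the treatments are therefore given as a description with no p-value, and no count over them is read as support.

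The libraries came from primary cultures of chondrocytes from mouse articular cartilage. In 3 libraries the cells had received an siRNA against Irf1 (siIRF1), and in the other 3 a control siRNA (siNC), with total RNA taken 36 h after transfection. Irf1 encodes an interferon-induced transcription factor. The labels give no strain, age or sex, nor whether the 3 replicates of a treatment are separate cultures or animals. The p-values are therefore set against the scatter among these libraries, and that scatter may be technical.

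Totals were 22349142 to 26752065 counts with Irf1 siRNA and 28565096 to 29282494 with control siRNA, so depth moved with treatment; counts were scaled for it, and its part in the results was not tested. Irf1 had 5.64, 5.09 and 6.02 CPM (counts scaled to library size, with TMM factors) in the siIRF1 libraries, against 11.1, 12.6 and 12.2 CPM in the siNC libraries, so each library lay on its label's side. The 10 chondrocyte markers, among them Col2a1, Acan and Sox9, summed to 91540 to 120200 CPM with Irf1 siRNA and 91960 to 120600 CPM with control siRNA, a sum made up mostly of Col2a1. Of these markers Hapln1, a cartilage link protein gene, was lower, at 915.1 ± 59.7 CPM with Irf1 siRNA and 1877 ± 36.7 CPM with control siRNA (SD, n = 3 each; log2 fold change −1.04, edgeR adjusted p = 1.6e-08). Of the other cell types checked, 5 smooth muscle and mural markers summed to 372.1 to 470.3 CPM with Irf1 siRNA and 797.6 to 1077 CPM with control siRNA, with Acta2, Cnn1 and Tagln lower. The 8 fibroblast and synovial markers summed to 3630 to 4524 CPM with Irf1 siRNA and 4908 to 5964 CPM with control siRNA, with Col1a1 and Col3a1 lower. The 7 macrophage markers summed to 18.1 to 18.6 CPM with Irf1 siRNA and 12.8 to 16.6 CPM with control siRNA, with Adgre1 at 0 counts, and Cd14 and Cd68 higher. Lyz2, the other macrophage marker above the filter, had 0.975 ± 0.191 CPM with Irf1 siRNA and 1.57 ± 0.250 CPM with control siRNA (SD, n = 3 each; log2 fold change −0.69, edgeR adjusted p = 0.0566). The 5 osteoblast markers summed to 89.4 to 121.7 CPM with Irf1 siRNA and 128.5 to 151.3 CPM with control siRNA. Endothelial and epithelial markers summed to under 2 CPM in every library. The part of these markers in the results below was not tested.

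Aldh3a1 and Aldh3a2 are neighbours. In GENCODE M21 on GRCm38, which is not the build the counts were made on (GRCm39), Aldh3a1 (ENSMUSG00000019102.11) lies at chr11:61207537-61218421 on the plus strand and Aldh3a2 (ENSMUSG00000010025.20) at chr11:61223417-61267464 on the minus strand. Their 3′ ends face each other with 4996 bases between. The sequences printed here are those of Aldh3a2, the member with the largest fall. Short words had been chosen on falls in these same libraries, namely ACTGATC with its shifted form CTGATCA and GCTATCT with its shifted form CTATCTA. They were looked up on the transcript strand in the annotated 3′ untranslated regions of the members. Aldh3a2 was the only one of the 8 members tested below that held a word, and it held 2, shown in capitals in 5′ to 3′ direction:
Aldh3a2 site A: ccaccgttgagGCTATCTgaagtgtattg
Aldh3a2 site B: atacttactctACTGATCttcaaaataaa
Both sites lie in the longest of its 4 annotated 3′ untranslated regions, of 1501 bases, with the word starting at base 1274 in site A and base 1471 in site B, and 2 of the 4 regions hold each site. The 3′ untranslated region of Aldh3a1 has at most 193 bases and holds none of the words, nor does that of Aldh3b1 with 403 bases. Among all tested genes with an annotated 3′ untranslated region, 25.3% held a word (3252 of 12837), against 1 of the 8 members. Of the 7 other genes of the family tested below, 2 held a word (28.6%), Aldh1l1 and Aldh1l2. The words had been chosen on falls in these data, so their presence is a description and says nothing of a cause. Whether genes with a word fell more than genes without was not tested here.

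The RefSeq promoter table, which gives 300 bases around a gene's start, held 6 of the 10 members with 8 promoters; Aldh1a3, Aldh2, Aldh3a1 and Aldh7a1 had no entry. The core motif of the aryl hydrocarbon receptor (AHR), GCGTG on either strand, was searched because AHR is the classical inducer of Aldh3a1. It was found once in the Aldh3a2 promoter (GRCm38.p6, chr11:61267137-61267436, minus strand), in capitals below:
Aldh3a2 promoter: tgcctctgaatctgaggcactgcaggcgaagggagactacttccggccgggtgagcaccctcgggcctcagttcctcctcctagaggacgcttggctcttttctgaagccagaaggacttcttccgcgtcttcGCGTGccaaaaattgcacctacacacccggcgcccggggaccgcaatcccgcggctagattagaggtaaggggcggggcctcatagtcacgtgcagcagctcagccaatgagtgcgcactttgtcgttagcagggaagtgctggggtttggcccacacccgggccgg
The motif was also found in a promoter of Aldh1a2, of Aldh6a1 and of Aldh9a1. Thus 4 of the 8 member promoters searched held it, against 32.4% of all 32851 promoters of this length. The core of the antioxidant response element, TGACNNNGC, was found in the promoters of Aldh1a2 and Aldh9a1 and in 12.4% of all promoters. A pair of IRF core motifs, GAAANNGAAA, was found in none of the 8 member promoters searched and in 3.44% of all. Each match is a run of letters and not a shown binding site.

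Of the 10 members, 8 had enough counts to test across all genes and 2 did not. In that fit 1 of the 8 was higher with Irf1 siRNA (Aldh3a1) and 2 were lower (Aldh3a2 and Aldh3b1) at an adjusted p under 0.05. For comparison, 22.4% of all 14683 tested genes were called, 10.4% higher and 12.0% lower. Which direction had more calls depended on the scaling, with 1522 higher and 1767 lower here and 1853 higher and 1548 lower with upper-quartile factors. The CPM ranges of the treatments did not overlap for 5 of the 8 members (Aldh2, Aldh3a1, Aldh3a2, Aldh3b1 and Aldh7a1), and for 38.1% of all tested genes. The median log2 fold change, Irf1 siRNA over control siRNA, was 0.08 over the 8 members and 0.001 over all tested genes. In bulk RNA, more transcript per cell and more cells that carry it cannot be told apart.

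**Figure D1:**
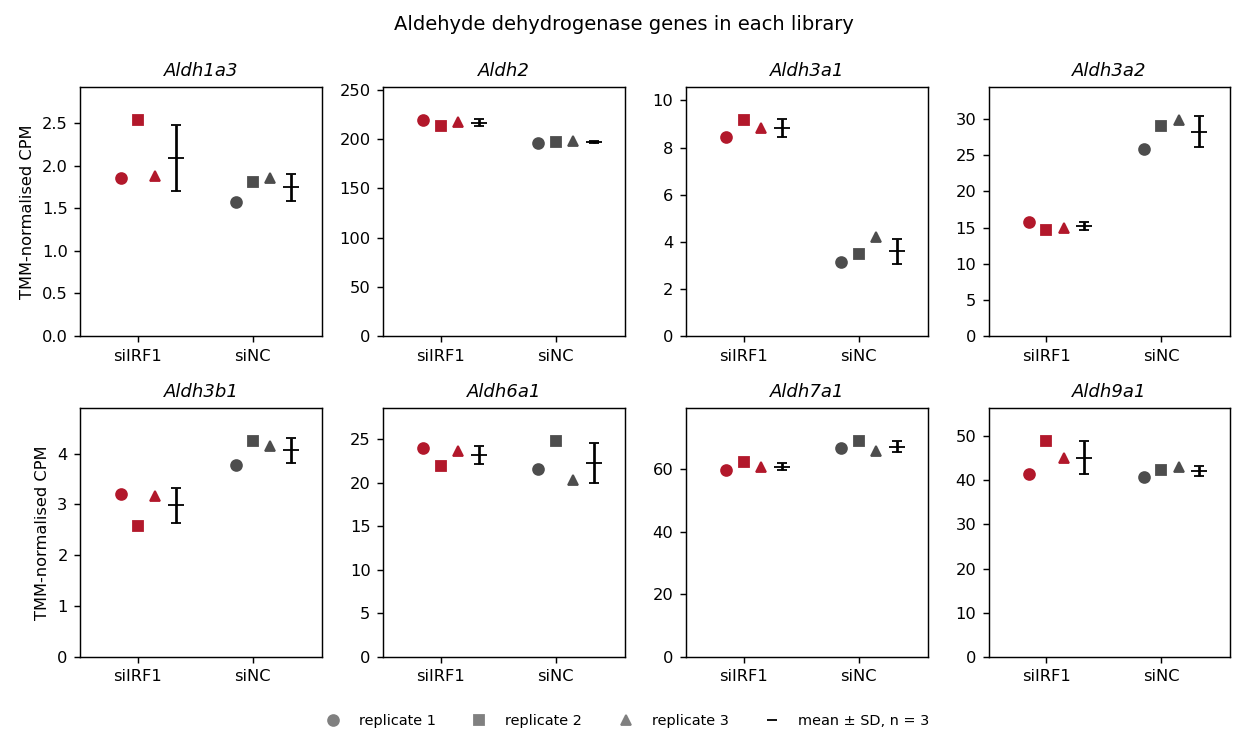
TMM-normalised CPM of the 8 members above the count filter in each of the 3 siIRF1 and 3 siNC libraries, with the mean and SD of each treatment beside the points; each panel has its own axis from 0. Aldh3a1 lies at 8.44 to 9.19 CPM with Irf1 siRNA, above 3.14 to 4.19 CPM with control siRNA, while Aldh3a2 lies at 14.7 to 15.8 CPM with Irf1 siRNA, below 25.9 to 29.95 CPM with control siRNA.

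The members of class 3 act on aromatic and fatty aldehydes. Aldh3a1, a cytosolic enzyme known as a major soluble protein of the cornea and as a gene of the AHR battery, had 187, 253 and 207 counts with Irf1 siRNA and 88, 98 and 124 counts with control siRNA. That is 8.44, 9.19 and 8.84 CPM in the siIRF1 libraries, against 3.14, 3.47 and 4.19 CPM in the siNC libraries. The lowest siIRF1 library was above the highest siNC library. Its level was 8.82 ± 0.374 CPM with Irf1 siRNA and 3.60 ± 0.535 CPM with control siRNA (SD, n = 3 each), a log2 fold change of 1.29 (SE 0.13) or 2.45-fold.

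Aldh3a2, the fatty aldehyde dehydrogenase of the endoplasmic reticulum, whose loss causes Sjögren-Larsson syndrome in humans, went the other way. It had 15.8, 14.71 and 14.99 CPM in the siIRF1 libraries, against 25.9, 29.0 and 29.95 CPM in the siNC libraries, with no overlap. The means were 15.2 ± 0.566 CPM with Irf1 siRNA and 28.3 ± 2.10 CPM with control siRNA (SD, n = 3 each), and the log2 fold change was −0.90 (SE 0.08), or 1.87-fold lower. Per kilobase of exon, the ratio of Aldh3a1 to Aldh3a2 was 1.55, 1.81 and 1.71 in the siIRF1 libraries and 0.35, 0.347 and 0.405 in the siNC libraries. Aldh3a1 was thus the more abundant of the pair per length in every siIRF1 library and the less abundant in every siNC library. This ratio is taken within each library and does not depend on scaling between libraries. With the longest transcript as the length, the mean levels of Aldh3a1 and Aldh3a2 were 5.10 and 4.91 CPM per kilobase with Irf1 siRNA and 2.08 and 9.16 with control siRNA. By that length Aldh3a1 was above Aldh3a2 in siIRF1 replicates 2 and 3 but below it in replicate 1, at 4.88 against 5.11 CPM per kilobase, so which of the pair was higher with Irf1 siRNA depended on the length used.

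Aldh3b1 (ENSMUSG00000024885.10), a membrane-anchored enzyme for lipid-derived aldehydes, had 3.21, 2.58 and 3.16 CPM with Irf1 siRNA, against 3.78, 4.26 and 4.15 CPM with control siRNA. The ranges did not overlap, with siIRF1 replicate 2 the lowest. The log2 fold change was −0.45 (SE 0.15), and the call was lost in 8 of the 11 alternative settings, among them the removal of any single library. The fold change stayed between −0.51 and −0.35 in all 11. Its near relatives Aldh3b2 and Aldh3b3 were hardly counted, with 2 counts for Aldh3b2 over the siIRF1 libraries and 0 over the siNC libraries, and 0 counts for Aldh3b3 in all 6, which allows a level of up to 0.0189 CPM over them.

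The mitochondrial enzyme Aldh2 (ENSMUSG00000029455.15), which oxidises acetaldehyde and aldehydes from lipid peroxidation, was the most abundant member. It had 220.0, 213.1 and 217.2 CPM with Irf1 siRNA and 196.1, 197.6 and 198.5 CPM with control siRNA, and every siIRF1 library was above every siNC library. The difference was small, with a log2 fold change of 0.13 (SE 0.05), and was not past the threshold, though it was with upper-quartile scaling. That scaling moved the median of all genes by less than 0.03 on the log2 scale and gave Aldh2 a log2 fold change of 0.16.

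Of the enzymes of amino acid and carnitine metabolism, none was past the threshold. Aldh7a1 (ENSMUSG00000053644.14), antiquitin, which acts in lysine breakdown, had 59.8, 62.1 and 60.6 CPM with Irf1 siRNA, against 66.7, 69.1 and 65.8 CPM with control siRNA. All siIRF1 values were below all siNC values, with a log2 fold change of −0.14 (SE 0.06). Aldh9a1 (ENSMUSG00000026687.15), which acts in carnitine synthesis, had 41.4, 49.0 and 44.9 CPM with Irf1 siRNA, against 40.8, 42.2 and 43.0 CPM with control siRNA, with overlap (log2 fold change 0.10, SE 0.07). Aldh6a1 (ENSMUSG00000021238.12), the methylmalonate semialdehyde dehydrogenase of valine breakdown, had 24.0, 22.0 and 23.6 CPM with Irf1 siRNA, against 21.6, 24.9 and 20.4 CPM with control siRNA (log2 fold change 0.06, SE 0.08). The siIRF1 values lay inside the range of the siNC values, and the sign of the fold change turned without siNC replicate 3.

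The retinaldehyde dehydrogenases were the least abundant members. Aldh1a3 (ENSMUSG00000015134.16) had 1.85, 2.54 and 1.88 CPM with Irf1 siRNA, against 1.57, 1.81 and 1.86 CPM with control siRNA, with overlap and a log2 fold change of 0.27 (SE 0.20). Aldh1a1 had 3, 6 and 1 counts with Irf1 siRNA and 4, 2 and 4 with control siRNA. Aldh1a2 had 2, 2 and 0 counts with Irf1 siRNA and 4, 2 and 1 with control siRNA. Neither was tested, and no fold is given for counts this low. Aldh1a7, a close mouse relative of Aldh1a1 with which it may share reads, had 13, 9 and 6 counts with Irf1 siRNA and 9, 3 and 1 with control siRNA and also stayed below the filter.

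Levels were compared between genes per kilobase of summed exons. The siNC levels do not depend on the contrast that chose the family, but the siIRF1 level of Aldh3a1 does. In the siIRF1 libraries the order was Aldh2 (42.3 ± 0.677 CPM per kilobase, SD, n = 3), Aldh9a1 (13.3 ± 1.12), Aldh7a1 (11.7 ± 0.230), Aldh3a1 (4.54 ± 0.192), Aldh6a1 (4.01 ± 0.185), Aldh3a2 (2.70 ± 0.101), Aldh3b1 (1.46 ± 0.171) and Aldh1a3 (0.453 ± 0.0847). In the siNC libraries the order was Aldh2 (38.5 ± 0.237 CPM per kilobase), Aldh7a1 (13.0 ± 0.333), Aldh9a1 (12.4 ± 0.33), Aldh3a2 (5.04 ± 0.374), Aldh6a1 (3.85 ± 0.401), Aldh3b1 (1.99 ± 0.122), Aldh3a1 (1.85 ± 0.275) and Aldh1a3 (0.378 ± 0.0334). Neighbours in the siNC order whose ranges overlapped were Aldh7a1 with Aldh9a1 and Aldh3b1 with Aldh3a1, so those pairs did not differ beyond their spread. Aldh3a1 thus stood in place 7 of the 8 with control siRNA and in place 4 with Irf1 siRNA, and Aldh3a2 in place 4 with control siRNA and in place 6 with Irf1 siRNA. The change of place of Aldh3a1 follows from the rise that chose the family and is a description. With the longest transcript as the length, the siNC order was the same for all 8, and Aldh3a1 stood in place 5 with Irf1 siRNA, behind Aldh6a1. Aldh2 made up 52.5% of the summed level per kilobase of the 8 with Irf1 siRNA and 50.0% with control siRNA. The 10 members together took 0.0371% to 0.0386% of all counts with Irf1 siRNA and 0.0351% to 0.0372% with control siRNA.

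**Figure D2:**
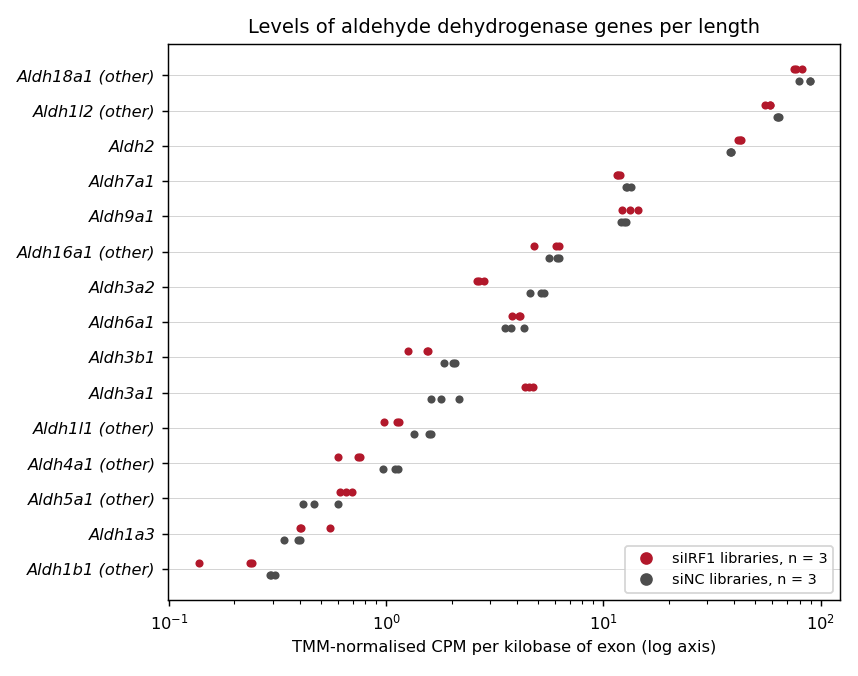
TMM-normalised CPM per kilobase of summed exons (log axis) of 15 aldehyde dehydrogenase genes, 1 point per library, siIRF1 above siNC for each gene, ordered by the siNC mean; genes outside the 10 members are marked as other. Aldh18a1, Aldh1l2 and Aldh2 lie highest, and Aldh3a1 (4.54 with Irf1 siRNA, 1.85 with control siRNA) passes Aldh3b1, Aldh6a1 and Aldh3a2 with Irf1 siRNA.

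Of the other 11 genes of the family, 7 passed the filter and were tested. Of these, 2 fell with Irf1 siRNA and 0 rose, a share of 28.6% called against 22.4% of all tested genes, with a median log2 fold change of −0.15 against 0.001 over all tested genes. Aldh4a1, the mitochondrial enzyme of proline breakdown, had 2.93, 3.71 and 3.63 CPM with Irf1 siRNA and 4.74, 5.39 and 5.57 CPM with control siRNA, all siIRF1 values being the lower (log2 fold change −0.61, SE 0.14, adjusted p = 0.00654 in the edgeR quasi-likelihood test). Aldh1l1, the cytosolic formyltetrahydrofolate dehydrogenase, had 4.42, 5.19 and 5.08 CPM with Irf1 siRNA and 7.10, 7.23 and 6.04 CPM with control siRNA (log2 fold change −0.47, SE 0.13, adjusted p = 0.0150, edgeR). Its call was lost without siIRF1 replicate 1 (adjusted p = 0.0554), siNC replicate 1 (0.0522) or siNC replicate 2 (0.0665), over a range of 0.00538 to 0.0665 in the 11 settings. Aldh4a1 alone was called in this list without siIRF1 replicate 1 or siNC replicate 2.

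The most abundant genes of the family were not among the members. Aldh18a1, which makes the precursor of proline, had 78.0 ± 3.52 CPM per kilobase with Irf1 siRNA and 86.1 ± 5.60 with control siRNA (SD, n = 3 each). Aldh1l2, the mitochondrial relative of Aldh1l1, had 57.5 ± 1.77 with Irf1 siRNA and 63.9 ± 0.727 with control siRNA. Neither was past the threshold in edgeR (Aldh18a1 log2 fold change −0.14, SE 0.06, adjusted p = 0.115; Aldh1l2 −0.15, SE 0.05, adjusted p = 0.0513). Aldh1l2 passed it with DESeq2 (0.0364) and with no filter (0.0454), over a range of 0.0364 to 0.148. Aldh5a1, the succinate semialdehyde dehydrogenase, had a log2 change of 0.41 (SE 0.17, adjusted p = 0.101), Aldh1b1 −0.52 (SE 0.33, adjusted p = 0.279) and Aldh16a1 −0.08 (SE 0.09, adjusted p = 0.583), all log2 changes from edgeR. Aldh5a1 passed the threshold without siNC replicate 1 (0.0370, range 0.0370 to 0.296) and Aldh18a1 without siNC replicate 3 (0.0365, range 0.0365 to 0.309). The sign of Aldh16a1 turned without siIRF1 replicate 2. Aldh8a1, with 3 counts over the siIRF1 libraries and 3 over the siNC libraries, was not tested.

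**Figure D3:**
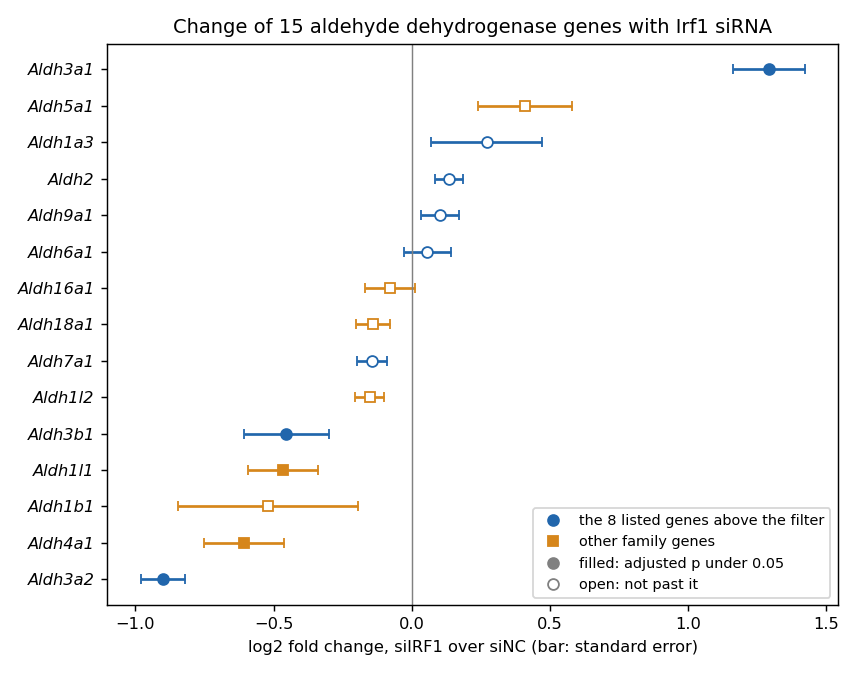
Log2 fold change, siIRF1 over siNC, with its standard error for 15 aldehyde dehydrogenase genes from the edgeR fit over all genes; circles are the 8 members above the filter, squares the other family genes, and filled symbols those with an adjusted p under 0.05. Aldh3a1 (1.29) and Aldh3a2 (−0.90) lie at opposite ends of the family.

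The genome neighbourhood of Aldh3a1 was looked at next. Besides Aldh3a2, the nearest tested genes after it were Mfap4, 267 kb away, at 0.627 ± 0.180 CPM with Irf1 siRNA and 0.648 ± 0.385 CPM with control siRNA (SD, n = 3 each; edgeR adjusted p = 0.969), and Mapk7, 270 kb away, with a log2 fold change of −0.24 (SE 0.07, edgeR adjusted p = 0.0238). Before it lay Usp22, a deubiquitinase gene 32.5 kb away, which fell by 0.20 in log2 (SE 0.06, adjusted p = 0.0169, edgeR). The kinase gene Map2k3, 255 kb away, rose by 0.35 in log2 (SE 0.06, adjusted p = 7.39e-04, edgeR), and its antisense gene Map2k3os had a log2 change of 0.13 (SE 0.14, adjusted p = 0.569, edgeR). The neighbours thus included calls in both directions, of smaller size than those of Aldh3a1 and Aldh3a2.

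Genes with the pattern most like that of Aldh3a1 over the 6 libraries were found by the root mean square difference of mean-centred log2 CPM, among 12798 tested genes averaging 1 CPM or more. The nearest were Rnf227 (difference 0.10 on the log2 scale), the matricellular protein gene Ccn3 (0.11), the kinase gene Mapk12 (0.11), Vash2 (0.11) and the transcription factor gene Twist2 (0.12). Ccn3 had 40.1, 45.6 and 40.7 CPM with Irf1 siRNA and 17.8, 17.9 and 23.4 CPM with control siRNA. Like Aldh3a1, it was highest of its siIRF1 group in replicate 2 and of its siNC group in replicate 3. This likeness is a description over 6 libraries, with no test.

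Genes tied to AHR were tested because Aldh3a1 belongs to its battery. Of 12 listed, 9 passed the filter, 2 rose and 1 fell, a share of 33.3% called against 22.4% of all tested genes, with a median log2 fold change of 0.06 against 0.001 over all tested genes. Cyp1a1, the enzyme gene most used as a readout of AHR, had 17, 30 and 23 counts with Irf1 siRNA and 9, 2 and 12 counts with control siRNA. Its level was low, 0.946 ± 0.164 CPM with Irf1 siRNA and 0.266 ± 0.174 CPM with control siRNA (SD, n = 3 each), and was higher with Irf1 siRNA (log2 fold change 1.82, SE 0.41, adjusted p = 0.00508, edgeR), with no overlap between the treatments. It passed the filter on low counts through the siIRF1 libraries, where it is high, so its call is given as a description. The share called in this list counts Cyp1a1 and is likewise a description. Its log2 fold change ran from 1.38 to 2.26 over the 11 alternative settings.

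Nqo1, a quinone reductase gene shared with the NRF2 response, had 158.3, 182.4 and 183.5 CPM with Irf1 siRNA and 111.2, 108.5 and 132.4 CPM with control siRNA. Its log2 fold change was 0.57 (SE 0.08, adjusted p = 1.27e-04, edgeR), and every siIRF1 library was above every siNC library. Other genes of the battery were not past the threshold. Cyp1b1, an abundant member, had 226.1 ± 25.8 CPM with Irf1 siRNA and 236.2 ± 30.1 CPM with control siRNA (SD, n = 3 each; log2 fold change −0.06, SE 0.10, edgeR adjusted p = 0.697), and its sign changed in 2 of the 11 settings. The repressor gene Ahrr had a log2 change of 0.06 (adjusted p = 0.798) and the feedback gene Tiparp 0.09 (adjusted p = 0.328) in edgeR. The receptor gene Ahr itself had a log2 change of 0.18 (SE 0.10, adjusted p = 0.207), and its partner gene Arnt fell by 0.22 in log2 (SE 0.06, adjusted p = 0.0121), both from edgeR. Cyp1a2 and Ugt1a6a had 0 counts in all 6 libraries. Within the siNC group, Aldh3a1, Nqo1, Cyp1a1 and Cyp1b1 were all highest in replicate 3.

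Retinoid genes surround the reaction of the Aldh1a enzymes. Of 26 listed, 18 passed the filter, 3 rose and 2 fell, a share of 27.8% called against 22.4% of all tested genes, with a median log2 fold change of −0.035 against 0.001 over all tested genes. Crabp2, which carries retinoic acid to its receptors, had 11.9, 10.6 and 10.4 CPM with Irf1 siRNA and 6.71, 6.45 and 6.48 CPM with control siRNA (log2 fold change 0.74, SE 0.10, adjusted p = 9.19e-05, edgeR). The treatments did not overlap, and the 3 siNC values lay close together. The partner receptor gene Rxra rose by 0.34 in log2 (SE 0.06, adjusted p = 7.16e-04, edgeR). Rxrb, named after its value was seen, rose by 0.24 in log2 (adjusted p = 0.0254, edgeR), a call lost without siIRF1 replicate 1 or 3 or siNC replicate 2 or 3 (range over the 11 settings 0.00992 to 0.101).

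The lipid carrier gene Fabp5, which can also deliver retinoic acid, fell by 0.38 in log2 (SE 0.07, adjusted p = 0.00104, edgeR). Dhrs9, a retinol and steroid dehydrogenase gene, fell by 0.45 in log2 (SE 0.09, adjusted p = 0.00206, edgeR). The retinol dehydrogenase Rdh10, which supplies retinaldehyde, had a log2 change of 0.05 (adjusted p = 0.686), and the retinoic acid hydroxylase Cyp26b1, which degrades the product, had a log2 change of −0.04 (adjusted p = 0.756) in edgeR. The receptor genes Rara and Rarg had a log2 change of −0.03 (adjusted p = 0.849) and 0.05 (adjusted p = 0.669) in edgeR, with a sign that changed in 2 of the 11 settings for each. Cyp26a1 and Stra6 had 0 counts in all libraries, and the retinoic acid responsive receptor gene Rarb had 18 counts over the siIRF1 libraries and 14 over the siNC libraries.

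**Figure D4:**
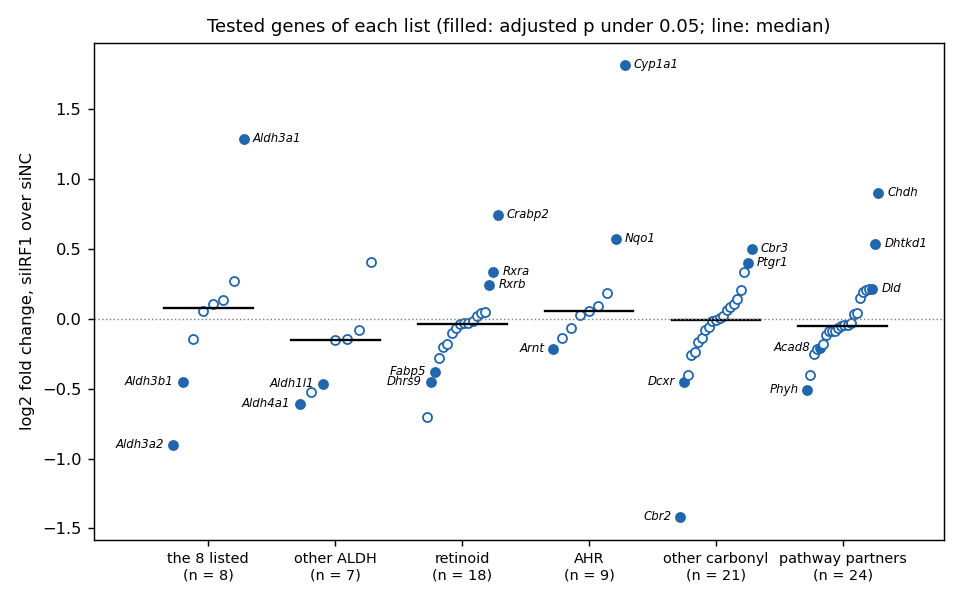
Log2 fold change, siIRF1 over siNC, of each tested gene in 6 lists; filled points have an adjusted p under 0.05 in edgeR and carry their symbol, and the black line is the list's median. The medians lie between −0.15 and 0.08, with Aldh3a1, Cyp1a1, Crabp2 and Chdh high and Cbr2, Aldh3a2 and Phyh low in their lists.

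Other enzymes act on aldehydes and ketones. Of 25 listed, 21 passed the filter, 2 rose and 2 fell, a share of 19.0% called against 22.4% of all tested genes. Cbr2, a carbonyl reductase gene, had 11.4, 11.5 and 13.1 CPM with Irf1 siRNA and 30.2, 35.2 and 30.7 CPM with control siRNA. Its log2 fold change was −1.42 (SE 0.09, adjusted p = 2.57e-08, edgeR), the largest difference among the tested genes of this list. Ptgr1, a reductase gene for prostaglandins and unsaturated aldehydes, rose by 0.40 in log2 (SE 0.08, adjusted p = 0.00312, edgeR). Cbr3 rose by 0.50 in log2 (adjusted p = 0.0260, edgeR) and Dcxr fell by 0.45 in log2 (adjusted p = 0.0444, edgeR). The call of Cbr3 was lost in 5 of the 11 settings (range 0.0171 to 0.110) and that of Dcxr in 7 (range 0.0115 to 0.176). Without siIRF1 replicate 2, siIRF1 replicate 3 or siNC replicate 2, Cbr2 and Ptgr1 were the only called genes. Adh5, the formaldehyde-clearing alcohol dehydrogenase gene, had a log2 change of 0.14 (SE 0.06, adjusted p = 0.117, edgeR).

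Partners of the members in their own pathways were tested as well. Of 31 listed, 30 matched a symbol and 24 passed the filter, with 3 higher and 2 lower, a share of 20.8% called against 22.4% of all tested genes. The median log2 fold change was −0.05, against 0.001 over all tested genes. Chdh, which makes betaine aldehyde from choline, a substrate of Aldh7a1 and Aldh9a1, had 16.3, 15.4 and 14.5 CPM with Irf1 siRNA and 8.88, 8.12 and 7.66 CPM with control siRNA. Its log2 fold change was 0.90 (SE 0.10, adjusted p = 6.38e-06, edgeR), and the treatments did not overlap. Phyh, a peroxisomal hydroxylase gene upstream of a fatty aldehyde step, had 149.1, 140.5 and 140.9 CPM with Irf1 siRNA and 204.6, 214.6 and 193.8 CPM with control siRNA (log2 fold change −0.51, SE 0.06, adjusted p = 1.36e-05, edgeR). Its direction was that of Aldh3a2, and a relation between them was not tested.

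Of the lysine and valine partners, Dhtkd1, a dehydrogenase subunit gene of lysine breakdown, rose by 0.54 in log2 (SE 0.14, adjusted p = 0.00977, edgeR), a call lost without siIRF1 replicate 2 (0.0584; range 0.00292 to 0.0584). Dld, the shared lipoamide dehydrogenase subunit gene, rose by 0.21 in log2 (adjusted p = 0.0251, edgeR), a call lost without siIRF1 replicate 2, siNC replicate 1 or siNC replicate 2 (range 0.00839 to 0.116). Acad8, of valine breakdown and named after its value was seen, fell by 0.21 in log2 (adjusted p = 0.0455, edgeR), a call lost in 9 of the 11 settings (range 0.0477 to 0.146). Without siIRF1 replicate 2 the list had 2 called genes, and without siNC replicate 1 or replicate 2 it had 3. Sgpl1, which releases the fatty aldehyde that Aldh3a2 oxidises in sphingolipid breakdown, had a log2 change of −0.03 (SE 0.06, adjusted p = 0.806, edgeR), at 111.0 ± 6.69 CPM with Irf1 siRNA and 113.0 ± 4.96 CPM with control siRNA (SD, n = 3 each).

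**Figure D5:**
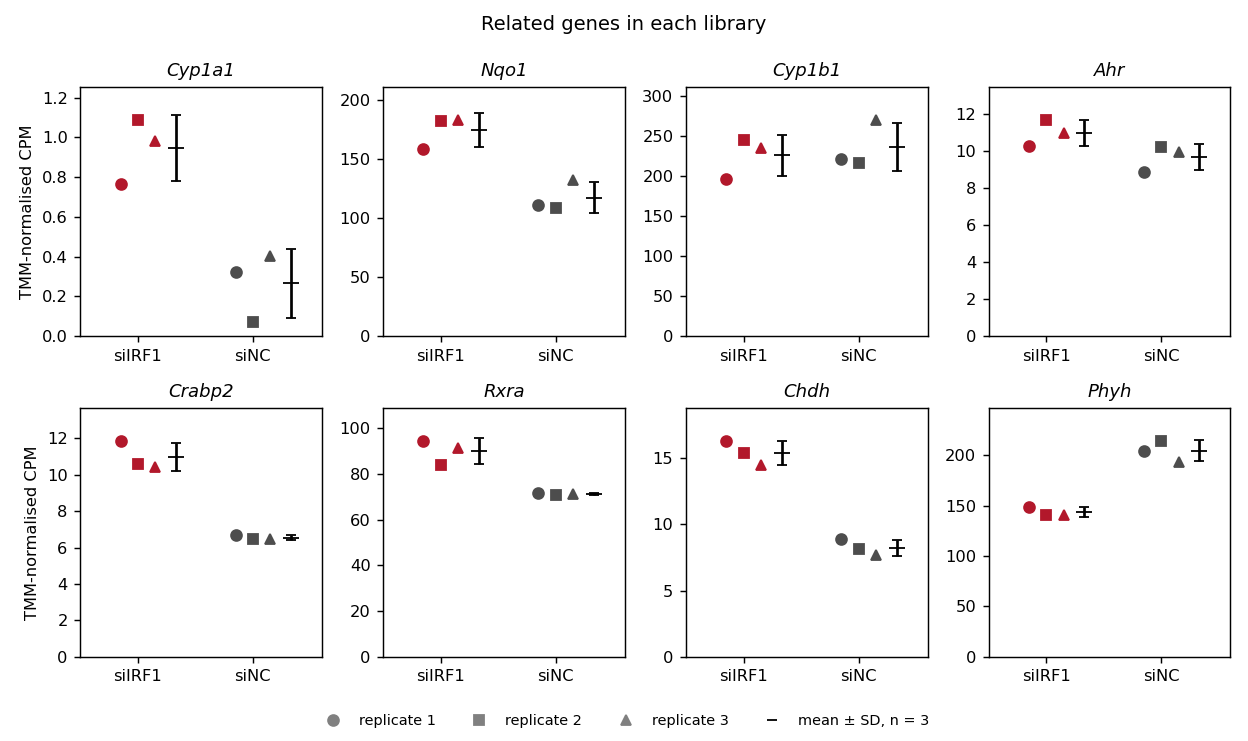
TMM-normalised CPM of 8 related genes in each of the 3 siIRF1 and 3 siNC libraries, with the mean and SD of each treatment; each panel has its own axis from 0. Cyp1a1, Nqo1, Crabp2, Rxra and Chdh lie higher with Irf1 siRNA in all libraries, Phyh lies lower, and Cyp1b1 overlaps. Ahr lies narrowly higher, from 10.25 CPM up with Irf1 siRNA and up to 10.21 CPM with control siRNA, and is not past the threshold.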

How the data were processed

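The authors deposited raw read counts per gene, 1 table per library, with symbols joined to Ensembl identifiers. Libraries were made with a stranded kit for polyadenylated RNA, per the labels' protocols. Trimmomatic 0.39, FastQC and STAR with GRCm39 (mm39) are named in the submitters' processing notes; the counter, annotation and strand setting are not given in these sources, so overlapping, antisense (Map2k3os) and near-identical genes can share reads. The members and gene lists were chosen with earlier results of these data known.

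The counts were fitted in R 4.3.3 with edgeR 4.0.16: filterByExpr left 14683 of 55377 genes, then TMM scaling, glmQLFit with the robust option and glmQLFTest with treatment as the only term (two-sided), with Benjamini-Hochberg adjustment over all tested genes and calls below 0.05. The fit was tested on simulated data. Standard errors are the absolute log2 fold change over the square root of F. Same-treatment pairs differed beyond counting noise (chi-square per degree of freedom 5.76 to 16.6), so none was a copy.

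Named are Irf1, the members, the other family genes above the filter, up to 4 called genes of each list (lowest adjusted p first), the 3 nearest tested genes on each side of Aldh3a1, the 5 genes nearest it in pattern, and Rxrb, Acad8 and some uncalled list genes, which were chosen after their values were seen. Lengths, positions and 3′ untranslated regions came from GENCODE M21 (GRCm38), matched by identifier for 14655 tested genes, and promoters from RefSeq (GRCm38.p6). Alternatives were RLE (relative log expression) and upper-quartile scaling, DESeq2 1.42.0, no filter, a replicate block, leaving out each library, and another gene length.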

Additional observations from a re-analysis of the deposited data

How the results depend on the processing

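Over the 11 alternative settings (2 scalings, DESeq2, no filter, a replicate block, and each library left out), Aldh3a1 and Aldh3a2 kept their direction and stayed past the threshold. Their log2 fold changes ran from 1.20 to 1.41 and from −0.96 to −0.86. Aldh3a1 was chosen for its rise in these same libraries, so its calls in these settings are a description. Aldh3b1 lost its call when any library was left out, which left 2 members called, with DESeq2 (2 called), and with upper-quartile scaling (3 called, with Aldh2). All genes called were 3289, with 2235 to 3114 when a library was left out. The other aldehyde dehydrogenase genes called ranged from 1 to 3, the retinoid genes from 4 to 5, the AHR genes stayed at 3, the other carbonyl-metabolising genes ranged from 2 to 4, and the pathway partners from 2 to 4 when a library was left out. With DESeq2, 2 of the other carbonyl-metabolising genes were called, against 4. The log2 fold change of Aldh6a1 ran from −0.006 to 0.141 when a library was left out, and that of Aldh16a1 from −0.149 to 0.036, both turning sign. Whether replicate numbers pair the libraries cannot be settled with 3 replicates per treatment. Deviations of same-numbered libraries correlated at 0.195, −0.045 and 0.052, and those of differently numbered libraries at −0.229 to 0.192. With the replicate block 3728 genes were called, against 3289. They included 3 members, and 5 other carbonyl-metabolising genes against 4. Settings for family genes outside the members were added after the data were seen. Depth limits Aldh1a1, Aldh1a2 and Aldh1a7, whose counts were too low to test, and Cyp1a1, at most 30 counts in a library.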
